A study of Mus musculus with 76 samples.

Results

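Visceral fat (VFAT) was compared with kidney in mice that had a partial nephrectomy (PNx) and were given control cells. The samples were chosen by their labels: 5 VFAT and 5 Kidney libraries, 10 of the 74 samples of the series. All 10 came from 12-week-old male Fox Chase SCID mice (CB17/Icr-Prkdcscid/IcrlcoCrl), and both tissues shared the surgery, the transplant and the strain. The series asks about Na/K-ATPase signalling of adipose tissue in uremic cardiomyopathy. Besides this arm it holds Sham mice, PNx mice with no cells, PNx mice with cells labelled Lenti-adipo-NaKtide, and PNx mice with cells labelled Lenti-adipo-scrambled. What the control cells were is not given in the sources used here. Nor do the labels say that the libraries of a group came from separate mice, so p-values measure the spread between these libraries. Every mouse of the arm had lost part of its kidney mass, and which part of the kidney was sequenced is not stated by the labels.

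White fat stores triglyceride in a lipid droplet coated by perilipins, takes up glucose and fatty acid under insulin, releases fatty acid by lipolysis and secretes hormones such as leptin and adiponectin. The kidney is a tubular epithelium: the proximal tubule reclaims glucose, amino acids and organic anions and makes glucose, the loop of Henle and distal tubule recover salt, and the collecting duct sets water, potassium and acid excretion. The basolateral Na/K-ATPase drives that transport. The scid mutation disables V(D)J recombination, so these mice lack mature T and B cells and keep macrophages, natural killer cells, neutrophils and mast cells.

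Total counts ranged from 6427994 to 20037187 in VFAT and from 1241590 to 11096297 in Kidney. Several libraries stood apart within their tissue. Kidney 5, the shallowest, held 1239 CPM (counts scaled to a common library size by TMM) of summed adipokine genes against 197 to 234 in Kidney 1 to 4, and 668 CPM of brown fat genes against 70.0 to 89.4. Heart muscle genes summed to 123 and 333 CPM in Kidney 4 and 5 and to 10.5 to 23.1 in Kidney 1 to 3. Kidney 4 and 5 also favoured short over long genes (mean log2 CPM of short genes minus that of long genes 0.48 and 0.50, against −0.83 to −0.26 in the other 3 and −0.99 to −0.66 in VFAT). In VFAT, liver genes summed to 5595 and 10997 CPM in libraries 3 and 5 and to 57.6, 112 and 108 in libraries 1, 2 and 4. Epithelial junction genes summed to 340, 983 and 638 CPM in VFAT 2, 3 and 5 and to 26.1 and 31.7 in VFAT 1 and 4, against 2222 to 2625 in Kidney. Counts were therefore also taken without VFAT 2, 3 and 5 and Kidney 4 and 5, a reduced set of VFAT 1 and 4 and Kidney 1 to 3. VFAT 4, which stays in this set, stood apart too. Its neutrophil genes summed to 94.2 CPM against 4.5 to 8.4 in the other VFAT libraries, and it was the highest for the seminal vesicle genes below. Settings without VFAT 3 and 5, without Kidney 4 and 5 or without a single library were also run, and their values stand beside the results they change. Since the libraries left out stood apart by the liver, epithelial, adipokine, brown fat and heart sums, shifts of those genes there follow from the choice. So do shifts of any other gene that was high in the libraries left out. The p-values of these settings describe the remaining libraries and are no separate support.

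**Figure D1:**
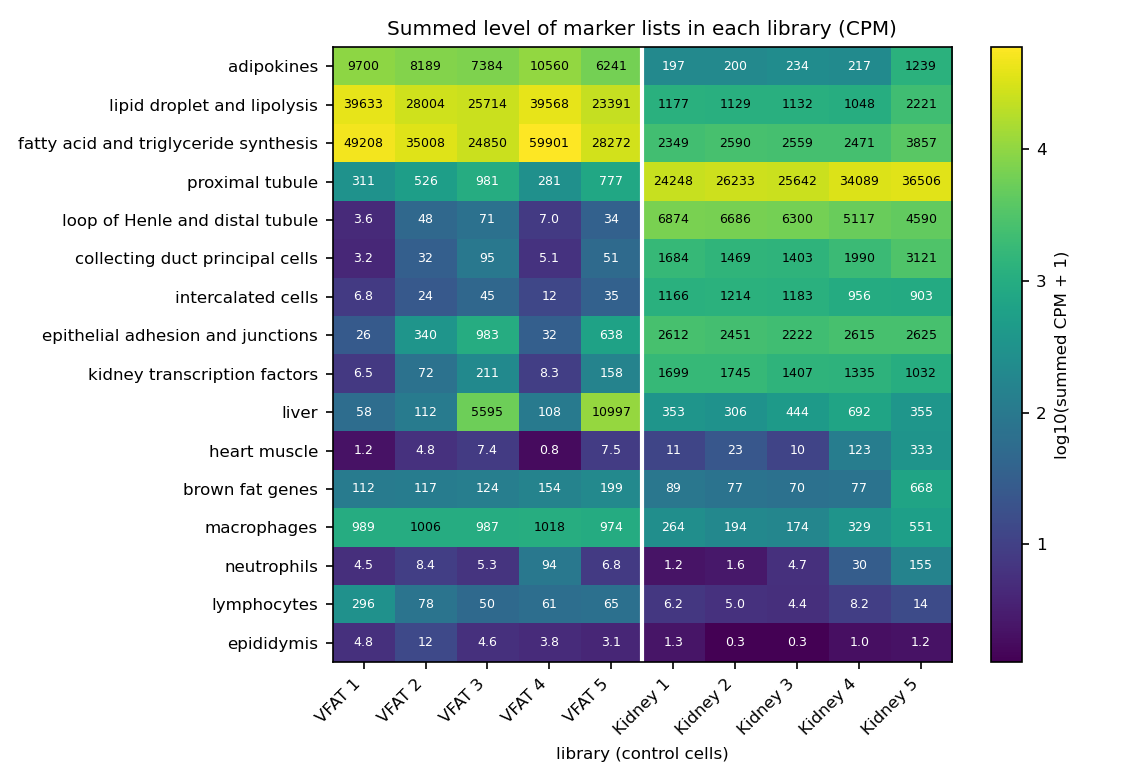
Summed CPM of the genes of 16 marker lists (rows) in each of the 10 libraries (columns), coloured by log10(summed CPM + 1) and printed in each cell. Liver genes stood at 5595 and 10997 CPM in VFAT 3 and 5, epithelial junction genes at 340 to 983 CPM in VFAT 2, 3 and 5, and adipokine genes at 1239 CPM in Kidney 5.

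Of 15716 genes tested with edgeR's quasi-likelihood test, 8091 (51.5%) were called at an adjusted p under 0.05. Of these, 4214 (26.8%) were higher in VFAT and 3877 (24.7%) higher in Kidney, and the median log2 fold change (VFAT over Kidney, used throughout) was 0.03. With plain library totals in place of TMM the median was 0.24 and the split 4678 to 2821, or 62.4% higher in VFAT against 52.1%. By a test against a 2-fold difference plus an estimated fold of at least 4, 2874 genes (18.3%) passed, 1591 (10.1%) higher in VFAT and 1283 (8.16%) higher in Kidney. Without VFAT 2, 3 and 5 and Kidney 4 and 5, 2135 genes were past 4-fold in Kidney. Where a gene is said to differ by a value, or a value alone follows it in brackets, that is its log2 fold change, and it passed the threshold. In bulk tissue, fewer cells of a type and less RNA per cell cannot be told apart.

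The 10 largest differences toward VFAT were Lep, Svs5, Nnat, Svs4, Bche, Adrb3, Apol6, Plin1, Abcd2 and Slc7a10. Lep (ENSMUSG00000059201, chr6:29060220-29073877, + strand), which encodes leptin, stood at 706, 261, 330.3, 113 and 349 CPM in VFAT 1 to 5 and had no count in any Kidney library. VFAT was at least 4428-fold higher, set against 3 counts over the 5 Kidney libraries together. Adrb3, the β3-adrenergic receptor that triggers lipolysis, had 545, 656, 400.1, 456 and 416 CPM in VFAT 1 to 5 and 0.0868, 0, 0.191, 0 and 4.62 CPM in Kidney 1 to 5 (log2 fold change 11.01 ± 1.0 (SE), adjusted p = 4.45e-06). Abcd2, a peroxisomal transporter of very-long-chain fatty acids, had 931, 661, 473, 749 and 496 CPM in VFAT 1 to 5 and 0.347, 0.092, 0.0954, 0.749 and 2.31 CPM in Kidney 1 to 5 (log2 fold change 10.88 ± 0.69 (SE), adjusted p = 3.38e-07). Groups that do not overlap were a condition for entry among the 10 in either direction. Kidney 5 was the highest Kidney library for Adrb3 and Abcd2. Svs4, a seminal vesicle secretory protein, was uneven within fat: 5.66, 4.53, 353, 959 and 613 CPM in VFAT 1 to 5, and at most 0.499 CPM in Kidney. Another seminal vesicle gene, Svs5, was high in the same 3 VFAT libraries (6.09, 3.23, 251, 673 and 469 CPM).

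The 10 largest toward Kidney were Slc12a1, Slc22a6, Miox, Kcnj1, Akr1c21, Akr1c18, Slc5a10, Mep1b, Acsm2 and Slc5a12. Slc12a1 (ENSMUSG00000027202, chr2:125152505-125230002, + strand), the furosemide-sensitive Na-K-2Cl cotransporter of the thick ascending limb, stood at 1119, 889, 638, 329.5 and 350.3 CPM in Kidney 1 to 5 and at 0 in every VFAT library, at least 12403-fold. Kcnj1 (ROMK), the potassium channel that recycles potassium for it, was at least 3962-fold higher in Kidney, also from 0 counts in VFAT. Slc22a6 (OAT1), the basolateral organic anion transporter, stood at 1296, 1659, 1713, 1800 and 1420 CPM in Kidney and had 1 count over the 5 VFAT libraries, a ratio of pooled counts of 87954-fold (95% interval 15786 to 3473980), an exact interval for counting error only. Acsm2, a medium-chain acyl-CoA synthetase, had 0, 0.277, 0.605, 0.777 and 0.27 CPM in VFAT 1 to 5 and 3816, 3842, 3599, 3860 and 2947 CPM in Kidney 1 to 5 (log2 fold change −13.18 ± 0.65 (SE), adjusted p = 7.62e-08).

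**Figure D2:**
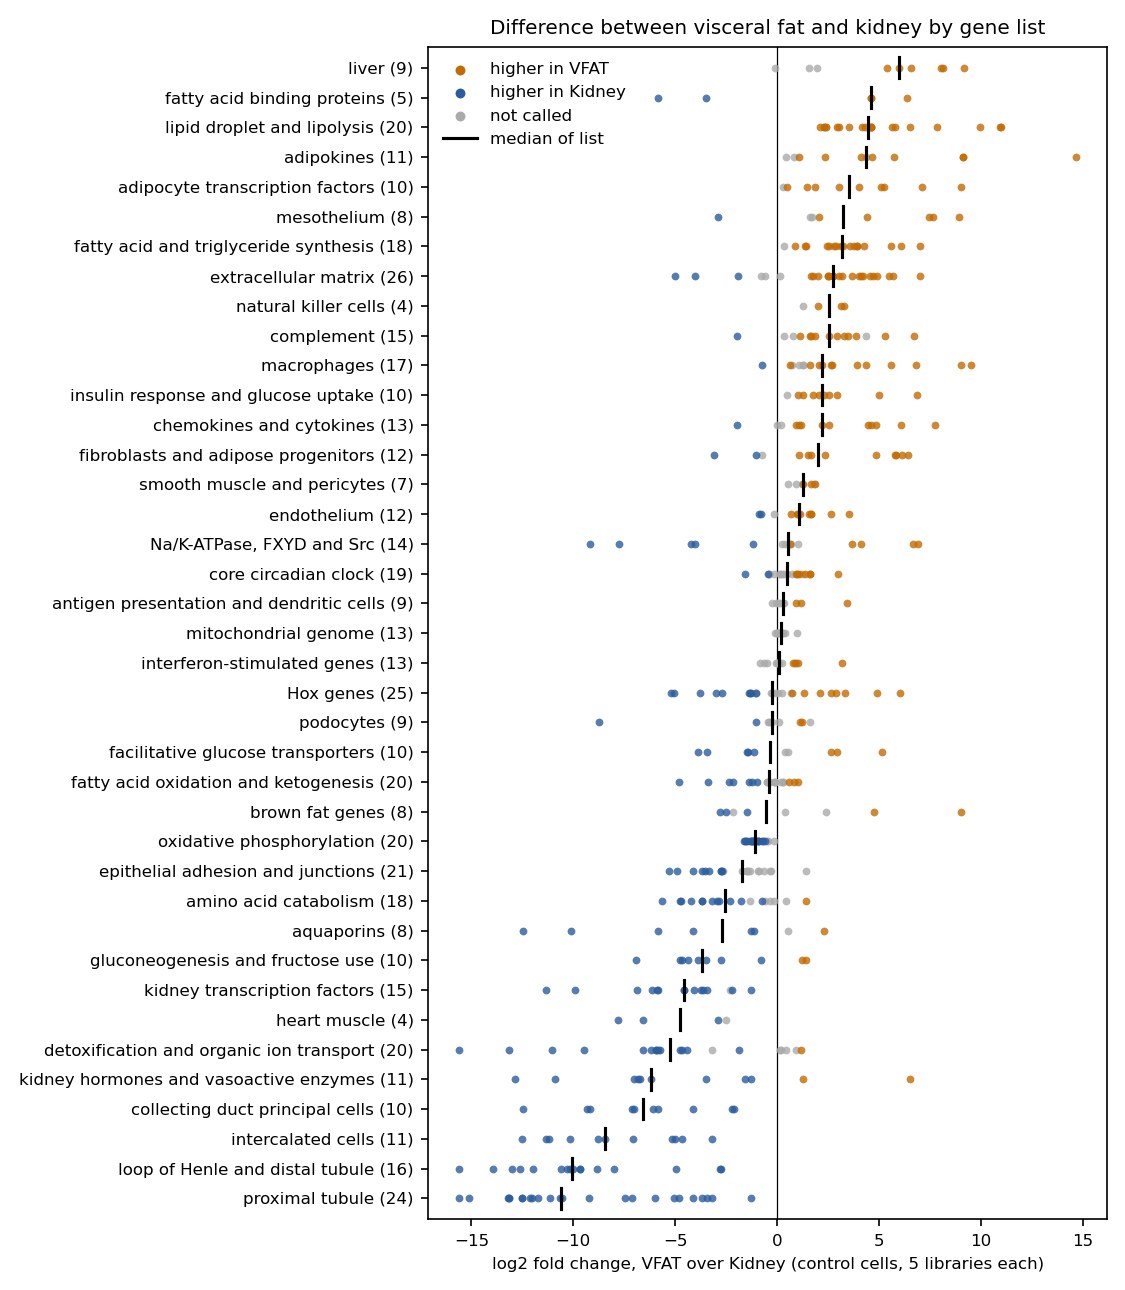
Log2 fold change (VFAT over Kidney, x axis) of each tested gene in lists with at least 4 tested genes (rows, number tested in brackets), coloured by call, with the list median as a bar. Proximal tubule, loop of Henle and intercalated cell genes lay wholly to the left, lipid droplet and adipokine genes to the right, and Hox, Na/K-ATPase and glucose transporter genes on both sides. Fitted values of genes with no count in a tissue are not bounds.

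Counts of list members are to be read against 26.8% of all genes higher in VFAT and 24.7% higher in Kidney. Only members that passed the filter on low counts were tested, and a gene high in a single tissue can pass it. With no filter, 5144 of 28937 genes were higher in VFAT and 4435 in Kidney. In the reduced set 4290 of 16518 genes were higher in VFAT and 4508 in Kidney. Without Kidney 4 and 5 these were 4818 and 4326 of 17043, and without VFAT 3 and 5 they were 3611 and 3649 of 16159. Of 11 adipokines tested, 8 were higher in VFAT, none in Kidney, and the median log2 fold change was 4.38 (0.03 over all genes). Adipoq, adiponectin, had 2386, 1932, 1763, 2505 and 1469 CPM in VFAT 1 to 5 and 0, 0, 0.572, 0.749 and 30.1 CPM in Kidney 1 to 5 (log2 fold change 9.14 ± 1.74 (SE), adjusted p = 0.00104). Without Kidney 4 and 5 its log2 fold change was 13.30, adjusted p = 1.22e-05. Retn, resistin, had 1166, 943, 774, 1293 and 625 CPM in VFAT 1 to 5 and 0.0868, 0, 0.286, 1.25 and 106 CPM in Kidney 1 to 5 (log2 fold change 5.73 ± 1.81 (SE), adjusted p = 0.0206), and Cfd, adipsin, 4229, 4045, 3480, 5553 and 2518 CPM in VFAT 1 to 5 and 0.434, 0, 1.72, 4.24 and 962 CPM in Kidney 1 to 5 (log2 fold change 4.38 ± 1.99 (SE), adjusted p = 0.0854). Cfd thus missed the threshold, with 962 CPM in Kidney 5 and at most 4.24 in the other Kidney libraries. Without Kidney 5, Cfd gave 11.47, adjusted p = 1.66e-05. Rbp4, retinol binding protein, and Nrg4, a neuregulin secreted by fat, were higher in VFAT (9.14 and 4.64, adjusted p = 5.86e-06 and 6e-07). Retn and Cfd, with Fasn, Nphs1, Ucp1, Epcam and Hnf4a below, were named after their values were seen.

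The promoters of Lep and Plin1 are shown because both genes are among the 10 largest toward VFAT and hold the motif TTGCNNAA, letters from the site of the C/EBP factors of adipocytes. Both are RefSeq sequences on build GRCm38.p6, read 5′ to 3′ on the gene's strand from 250 bases before to 50 after the start, at chr6:29059971-29060270 (+) and chr7:79732727-79733026 (−). Capitals mark motifs found on either strand.
Lep: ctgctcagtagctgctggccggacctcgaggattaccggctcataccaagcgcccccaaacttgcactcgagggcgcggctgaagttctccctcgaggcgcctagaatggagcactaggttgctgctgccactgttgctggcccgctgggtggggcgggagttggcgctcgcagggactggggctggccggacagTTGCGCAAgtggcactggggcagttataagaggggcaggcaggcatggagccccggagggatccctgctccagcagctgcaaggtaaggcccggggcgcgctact
Plin1: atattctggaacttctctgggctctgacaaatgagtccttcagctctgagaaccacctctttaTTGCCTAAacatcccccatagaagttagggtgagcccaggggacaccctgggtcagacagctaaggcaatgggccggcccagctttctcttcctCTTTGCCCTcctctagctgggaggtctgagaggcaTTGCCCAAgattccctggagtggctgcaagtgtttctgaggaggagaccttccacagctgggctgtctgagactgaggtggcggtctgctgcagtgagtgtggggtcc
Lep holds TTGCGCAA 55 bases before the start. Plin1 holds TTGCCTAA 187 and TTGCCCAA 58 bases before it, and between them CTTTGCCCT, which on the opposite strand matches AGGNCAAAG, letters from the direct repeat bound by PPAR. The C/EBP motif stood in 12.3% of 1088 promoters of genes past 4-fold in VFAT, in 9.22% of 900 of genes past 4-fold in Kidney, in 8.4% of 10632 of genes tested and in 10.8% of all 27025 in the table. The PPAR letters stood in 2.11%, 2.89%, 1.78% and 2.01% of them. A match is a description of letters and not a binding site.

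Levels of transcription factors were compared apart from these motifs, and no link between them was tested. Of 10 adipocyte transcription factors, 9 were higher in VFAT and none in Kidney (median 3.53). Pparg, the nuclear receptor that drives fat cell differentiation, had 278, 224, 200.1, 266 and 191 CPM in VFAT 1 to 5 and 2.17, 1.29, 1.72, 1.5 and 1.16 CPM in Kidney 1 to 5 (log2 fold change 7.12 ± 0.25 (SE), adjusted p = 1.64e-08). Cebpa had 1284, 848, 826, 1364 and 910.1 CPM in VFAT 1 to 5 and 54, 66.9, 67.8, 60.4 and 70.5 CPM in Kidney 1 to 5 (log2 fold change 4.03 ± 0.24 (SE), adjusted p = 1.93e-07). Pparg was close to absent from Kidney and Cebpa was not. Ebf1, an early factor of fat cell fate, and Klf4 differed by 5.25 and 3.03. Ebf2, a marker of beige and brown precursors, had 33.5, 20, 15.3, 20.6 and 17 CPM in VFAT and 1 count over the 5 Kidney libraries, in Kidney 5.

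Of 20 lipid droplet and lipolysis genes, 19 were higher in VFAT and all 19 of these were past 4-fold (median 4.46). In the reduced set it was 20 of 20. Plin1, perilipin 1, the coat of the fat cell's droplet, had 2425, 1737, 1514, 2300 and 1435 CPM in VFAT 1 to 5 and 0.0868, 0, 0.381, 0 and 13.9 CPM in Kidney 1 to 5 (log2 fold change 10.95 ± 1.57 (SE), adjusted p = 0.000137). Plin4 had 4514, 3223, 2684, 3820 and 2735 CPM in VFAT 1 to 5 and 1.82, 1.47, 2.29, 3 and 13.9 CPM in Kidney 1 to 5 (log2 fold change 9.96 ± 0.73 (SE), adjusted p = 9.38e-07). Lpl, the lipase that frees fatty acid from circulating lipoproteins, had 6808, 4180, 3727, 5942 and 3228 CPM in VFAT 1 to 5 and 242, 185, 164, 157 and 210.4 CPM in Kidney 1 to 5 (log2 fold change 4.64 ± 0.31 (SE), adjusted p = 4.43e-07). Lpl was thus well above 100 CPM in Kidney too, where the perilipins were near 0 outside Kidney 5. Mgll, which completes lipolysis, Cav1, the caveolar coat protein, and Npr3, the natriuretic peptide clearance receptor, were higher in VFAT by 4.30, 5.62 and 6.53 on the log2 scale.

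Of 18 fatty acid and triglyceride synthesis genes, 17 were higher in VFAT (13 past 4-fold) and none in Kidney (median 3.19). Scd1, the desaturase that makes oleate, had 21136, 15063, 11109, 22595 and 10658 CPM in VFAT 1 to 5 and 96.2, 183, 116, 66.7 and 159.5 CPM in Kidney 1 to 5 (log2 fold change 7.02 ± 0.45 (SE), adjusted p = 3.68e-07). Fasn, fatty acid synthase, had 11327, 8014, 4673, 15970 and 6128 CPM in VFAT 1 to 5 and 80.8, 94.8, 60.6, 68.4 and 671 CPM in Kidney 1 to 5 (log2 fold change 5.58 ± 0.85 (SE), adjusted p = 0.000208), and Acaca, which makes its malonyl-CoA, 2352, 1800, 866, 3515 and 1459 CPM in VFAT 1 to 5 and 22.5, 23, 14.5, 16.7 and 77.5 CPM in Kidney 1 to 5 (log2 fold change 6.07 ± 0.62 (SE), adjusted p = 1.1e-05). VFAT 1 and 4 were the highest and VFAT 3 and 5 the lowest VFAT libraries for all 3, and Kidney 5 was the highest Kidney library for Fasn and Acaca. Srebf1, the factor that drives these genes, and Dgat2, the last step of triglyceride synthesis, differed by 3.95 and 2.91.

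Fatty acid oxidation split: 3 of 20 genes were higher in VFAT, 7 in Kidney and 10 were not called (median −0.40). Cpt1a, the mitochondrial gate for fatty acid, had 63.4, 53.1, 94.8, 42.8 and 141 CPM in VFAT 1 to 5 and 501, 553, 437, 275 and 222 CPM in Kidney 1 to 5 (log2 fold change −2.33 ± 0.38 (SE), adjusted p = 0.000351). Slc27a2, a peroxisomal and plasma membrane acyl-CoA synthetase of the proximal tubule and liver, had 0.435, 12.7, 109.8, 1.68 and 250.2 CPM in VFAT 1 to 5 and 2229, 2396, 2576, 1944 and 1318 CPM in Kidney 1 to 5 (log2 fold change −4.80 ± 1.34 (SE), adjusted p = 0.0109); its VFAT values followed the libraries with liver genes. Ehhadh and Ppara, the peroxisomal enzyme and the receptor that induces it, were higher in Kidney (−2.16 and −1.23). Hadhb and Crat were higher in VFAT (1.03 and 0.85).

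The insulin response list was higher in VFAT in 9 of 10 genes (median 2.19). Slc2a4 (GLUT4), the insulin-regulated glucose transporter, had 395, 287, 235, 385 and 285 CPM in VFAT 1 to 5 and 37.1, 39.4, 39.8, 44.4 and 46.2 CPM in Kidney 1 to 5 (log2 fold change 2.94 ± 0.20 (SE), adjusted p = 5.28e-07). Hk2, which traps the glucose, Pde3b, the insulin-activated brake on lipolysis, Pik3r1 and Akt2 differed by 6.87, 5.0, 2.56 and 1.77. Brown fat genes did not share a direction: 2 of 8 were higher in VFAT (Dio2 and Ebf2), 3 in Kidney (Cox7a1, Ppargc1a and Prdm16), and 3 were not called. Ucp1, the uncoupling protein that defines brown fat, had 1.31, 0.924, 8.23, 2.2 and 25 CPM in VFAT 1 to 5 and 0, 0, 0.191, 0.999 and 208 CPM in Kidney 1 to 5 and was not called (log2 fold change −2.16 ± 1.86 (SE), adjusted p = 0.349). Without Kidney 5, Ucp1 gave 5.31, adjusted p = 0.0104. Without Kidney 4 and 5 the list split 6 to 3.

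**Figure D3:**
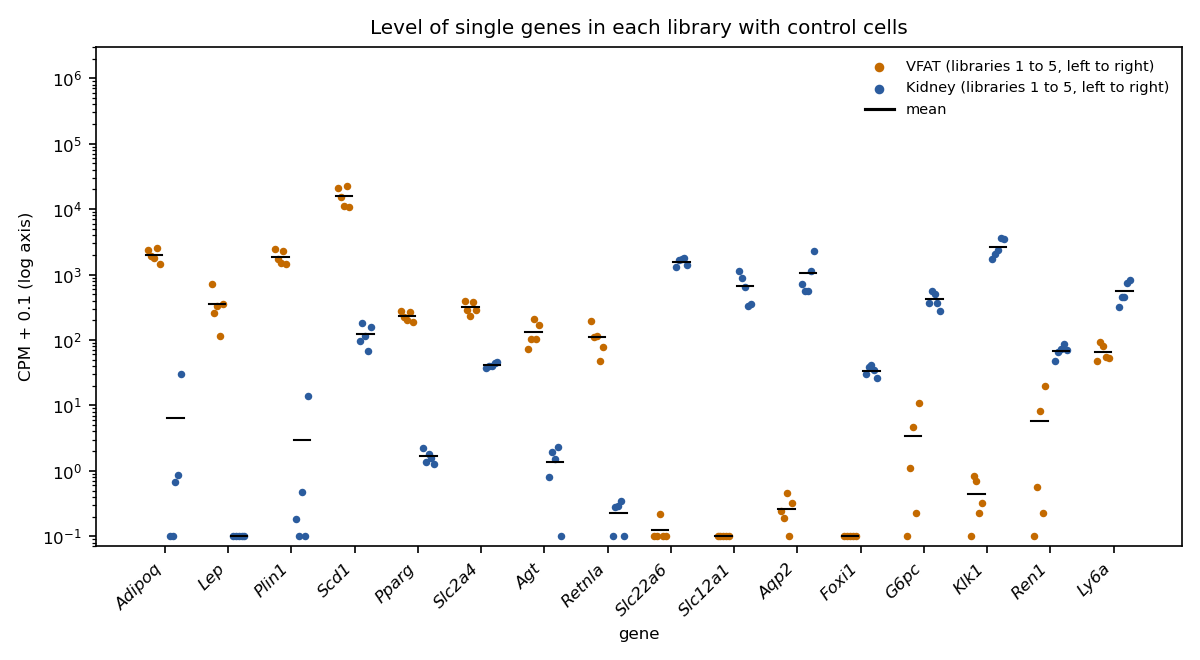
CPM + 0.1 (log axis) of 16 genes in each library, VFAT 1 to 5 and Kidney 1 to 5 from left to right within a gene, with the mean as a bar. The groups did not overlap for any of these 16, which were picked from the named genes, nor for 6576 of all 15716 genes tested. The single high Kidney points of Adipoq and Plin1 are Kidney 5 (30.1 and 13.9 CPM).

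The nephron lists were called toward Kidney in every tested member: 24 of 24 proximal tubule, 16 of 16 loop of Henle and distal tubule, 10 of 10 principal cell and 11 of 11 intercalated cell genes, with median log2 fold changes of −10.6, −10.1, −6.56 and −8.46. With genes at 0 counts set to their bound the first 2 medians were −9.88 and −9.69. In the reduced set the counts were again 24, 16, 10 and 11. In the proximal tubule, Miox, which breaks down inositol, stood at 1258, 1330, 1454, 2473 and 2295 CPM in Kidney and Slc22a8 (OAT3) at 532, 734, 689, 641 and 474, with 2 and 3 counts over the 5 VFAT libraries. Slc13a3, the dicarboxylate cotransporter, had 0.725, 0.277, 0.969, 0.648 and 1.21 CPM in VFAT 1 to 5 and 959.9, 1223, 1295, 1509 and 1435 CPM in Kidney 1 to 5 (log2 fold change −10.65 ± 0.44 (SE), adjusted p = 2.59e-08), and Slc7a13, an aspartate and glutamate transporter, 0.145, 0.277, 0.121, 0.648 and 0.27 CPM in VFAT 1 to 5 and 499.5, 371, 459, 521 and 413 CPM in Kidney 1 to 5 (log2 fold change −10.55 ± 0.40 (SE), adjusted p = 1.77e-08).

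In the loop and distal tubule, Umod, uromodulin, had 0, 0.554, 1.09, 0.389 and 0.99 CPM in VFAT 1 to 5 and 3005, 2948, 2953, 2426 and 2031 CPM in Kidney 1 to 5 (log2 fold change −12.00 ± 0.68 (SE), adjusted p = 1.69e-07). Slc12a3, the thiazide-sensitive NaCl cotransporter, stood at 408, 505, 354, 412 and 335 CPM in Kidney against 2 counts in all VFAT libraries together. Calb1, the calcium buffer of distal cells, had 0.145, 0.369, 0.605, 0 and 0.36 CPM in VFAT 1 to 5 and 274, 329.9, 291, 211 and 237 CPM in Kidney 1 to 5 (log2 fold change −9.69 ± 0.49 (SE), adjusted p = 9.38e-08). Slc12a1 was at 1119 and 889 CPM in Kidney 1 and 2 and at 329.5 and 350.3 in Kidney 4 and 5, while Slc12a3 lay within 335 to 505 CPM in all 5.

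In principal cells, Aqp2, the vasopressin-regulated water channel, had 0.145, 0.0924, 0.363, 0 and 0.225 CPM in VFAT 1 to 5 and 717, 554, 552, 1128 and 2250 CPM in Kidney 1 to 5 (log2 fold change −12.44 ± 0.76 (SE), adjusted p = 2.49e-07). Scnn1g, a subunit of the sodium channel ENaC, and Hsd11b2, which shields the mineralocorticoid receptor from glucocorticoid, differed by −7.02 and −9.33. In intercalated cells, Foxi1, the factor that specifies them, stood at 30.1, 38.3, 40.6, 34.2 and 26.6 CPM in Kidney and at 0 in every VFAT library, at least 633-fold. Slc26a4 (pendrin), of the base-secreting cells, and Slc4a1 (AE1), of the acid-secreting cells, differed by −8.80 and −7.06. Rhcg, the ammonia channel, stood at 96.9, 112, 104, 134 and 141 CPM against 2 counts over VFAT.

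Podocyte genes went both ways. Of 9, 2 were higher in VFAT, Cdkn1c among them, 2 in Kidney and 5 were not called. Of the 2 higher in Kidney, 1 was past 4-fold, and the other was Magi2 (log2 fold change −1.05 ± 0.35 (SE), adjusted p = 0.0254). Magi2 lost its call without Kidney 1 or 2 or VFAT 3, 4 or 5 (−1.01 to −0.89). Nphs1, nephrin, of the slit diaphragm, had 61.4, 136, 75.3, 60.8 and 81.2 CPM in VFAT 1 to 5 and 51, 51.6, 70.2, 96.9 and 119 CPM in Kidney 1 to 5 and was not called (log2 fold change 0.11 ± 0.30 (SE), adjusted p = 0.786). Its sign turned without Kidney 1 or 2 (both −0.02) and without VFAT 2 (−0.14). The Nphs1 value is uncertain in both tissues, since 183 of its exon bases are shared, on the opposite strand, with Rps12-ps4, a pseudogene copy of the ribosomal protein gene Rps12 that had 2530 counts over the 10 libraries beside 7168 for Nphs1; whether the fat counts come from Nphs1 was not tested.

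Of 15 kidney transcription factors, 14 were higher in Kidney and none in VFAT (median −4.55; 16 of 16 in the reduced set). Tfcp2l1, of the collecting duct, Emx1 and Esrrb had log2 fold changes of −6.86, −5.89 and −6.13. Hnf4a, the receptor that specifies proximal tubule and liver, had 0.145, 25, 94.9, 1.81 and 108 CPM in VFAT 1 to 5 and 658, 698, 644, 601 and 442 CPM in Kidney 1 to 5 (log2 fold change −3.73 ± 1.13 (SE), adjusted p = 0.0169). Its VFAT values were at or above 25 CPM in libraries 2, 3 and 5 and under 2 in 1 and 4, and the reduced set gave −9.31, adjusted p = 8.14e-08. That set leaves out VFAT 2, 3 and 5, so its value for Hnf4a is no separate support.

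Glucose production stood with Kidney, where 8 of 10 gluconeogenesis and fructose genes were higher and 2 were higher in VFAT (median −3.69). G6pc, glucose-6-phosphatase, which releases free glucose in liver and proximal tubule, had 0, 1.02, 4.6, 0.13 and 10.7 CPM in VFAT 1 to 5 and 368, 564, 511, 366 and 279.8 CPM in Kidney 1 to 5 (log2 fold change −6.91 ± 1.09 (SE), adjusted p = 0.000272). VFAT 3 and 5 were its highest fat libraries. Its promoter is shown because it holds the HNF1 motif GTTAATNAT, in capitals, 221 bases before the start (RefSeq, GRCm38.p6, chr11:101367466-101367765, + strand).
G6pc: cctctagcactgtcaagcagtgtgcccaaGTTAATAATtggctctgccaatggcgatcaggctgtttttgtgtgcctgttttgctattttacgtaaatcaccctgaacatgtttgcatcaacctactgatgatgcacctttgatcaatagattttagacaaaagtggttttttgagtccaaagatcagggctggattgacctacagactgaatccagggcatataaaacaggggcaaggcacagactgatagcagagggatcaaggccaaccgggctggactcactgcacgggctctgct
The HNF1 motif stood in 3% of promoters of genes past 4-fold in Kidney (27 of 900), 0.368% of those past 4-fold in VFAT (4 of 1088), 0.611% of genes tested and 0.836% of the table. Khk, ketohexokinase, which starts fructose breakdown, and Slc37a4, the glucose-6-phosphate transporter, were higher in Kidney (−4.66 and −2.76), as was Tkfc (−3.49). Pcx, pyruvate carboxylase, which also feeds lipid synthesis, was higher in VFAT, with 2051, 1574, 1047, 2841 and 1273 CPM in VFAT 1 to 5 and 619, 678, 594, 761 and 674 CPM in Kidney 1 to 5 (log2 fold change 1.4 ± 0.28 (SE), adjusted p = 0.00147).

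Of 11 genes for kidney hormones and vasoactive enzymes, 9 were higher in Kidney and 2 in VFAT. The renin-angiotensin genes divided between the tissues. Agt, angiotensinogen, the substrate of renin, had 73.5, 102, 206, 104 and 169.9 CPM in VFAT 1 to 5 and 0.694, 1.84, 1.43, 2.25 and 0 CPM in Kidney 1 to 5 (log2 fold change 6.54 ± 0.47 (SE), adjusted p = 7.76e-07). Ren1, renin, had 0, 0.462, 8.23, 0.13 and 19.9 CPM in VFAT 1 to 5 and 48.4, 64.3, 71.9, 86.9 and 70.5 CPM in Kidney 1 to 5 (log2 fold change −3.49 ± 1.03 (SE), adjusted p = 0.0146). Renin counts in fat came mostly from VFAT 3 and 5, and without these its log2 fold change was −8.12, adjusted p = 1.36e-06. Those were its highest fat libraries, so this larger difference follows from leaving them out and is no separate support. Enpep, aminopeptidase A, was higher in VFAT (log2 fold change 1.30 ± 0.42 (SE), adjusted p = 0.0228), a call lost without Kidney 4 (1.13, adjusted p = 0.0565) or VFAT 1 (0.98, adjusted p = 0.071). Klk1, tissue kallikrein, had 0, 0.739, 0.605, 0.13 and 0.225 CPM in VFAT 1 to 5 and 1699, 2076, 2371, 3636 and 3541 CPM in Kidney 1 to 5 (log2 fold change −12.85 ± 0.74 (SE), adjusted p = 1.75e-07). Vdr, the vitamin D receptor, and Cyp27b1, which activates vitamin D, were higher in Kidney (−7.02 and −6.83), and Cyp24a1, which inactivates it, stood at 88.7, 111, 26.8, 20.2 and 50.9 CPM against 1 count over VFAT.

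The Na/K-ATPase, the pump and signalling receptor that the series is about, is built of a catalytic and a β subunit and is tuned by small FXYD proteins. Of 11 pump, FXYD and Src genes reported here, 3 were higher in VFAT, 4 in Kidney and 4 were not called. Levels per length are given as FPKM, mean ± SD over 5 libraries.

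Atp1b1, the β1 subunit, measured 19 ± 18.9 FPKM in VFAT and 381 ± 118 FPKM in Kidney. By CPM it had 5.51, 73, 162, 4.79 and 78.7 CPM in VFAT 1 to 5 and 1626, 1482, 1457, 797 and 742 CPM in Kidney 1 to 5 (log2 fold change −4.24 ± 0.90 (SE), adjusted p = 0.00213). VFAT 2, 3 and 5 were its highest fat libraries, and in the reduced set its log2 fold change was −8.18, adjusted p = 9.78e-09. That set leaves out these libraries, so its value for Atp1b1 is no separate support. Atp1b3 was slightly higher in VFAT (47.9 ± 9.62 FPKM in VFAT and 31.5 ± 4.81 FPKM in Kidney; log2 fold change 0.65 ± 0.19 (SE), adjusted p = 0.0139), a call lost without VFAT 1 (0.54, adjusted p = 0.0511). Atp1b2 was not called (log2 fold change 0.40 ± 0.24 (SE), adjusted p = 0.18). Of the FXYD regulators, Fxyd2, the pump's γ subunit, and Fxyd4 were higher in Kidney (−7.78 and −9.17) and Fxyd1, phospholemman, in VFAT (3.68). Fxyd2 varied within Kidney, at 1234, 1332, 1593, 4351 and 7576 CPM, highest in the 2 libraries that favoured short genes. Src, the kinase of the pump's signalling, was higher in Kidney, with 14.8, 17.3, 27.1, 10.5 and 18.2 CPM in VFAT 1 to 5 and 40.5, 39.2, 33.2, 42.4 and 43.9 CPM in Kidney 1 to 5 (log2 fold change −1.17 ± 0.23 (SE), adjusted p = 0.00119), while Egfr, which it transactivates, was not called (log2 fold change 0.26 ± 0.31 (SE), adjusted p = 0.512). Atp1a4, best known from sperm, stood at 11.5, 14.8, 9.08, 16.1 and 8.23 CPM in VFAT with 3 counts over Kidney. Fxyd5 and Fxyd6 were not called.

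**Figure D4:**
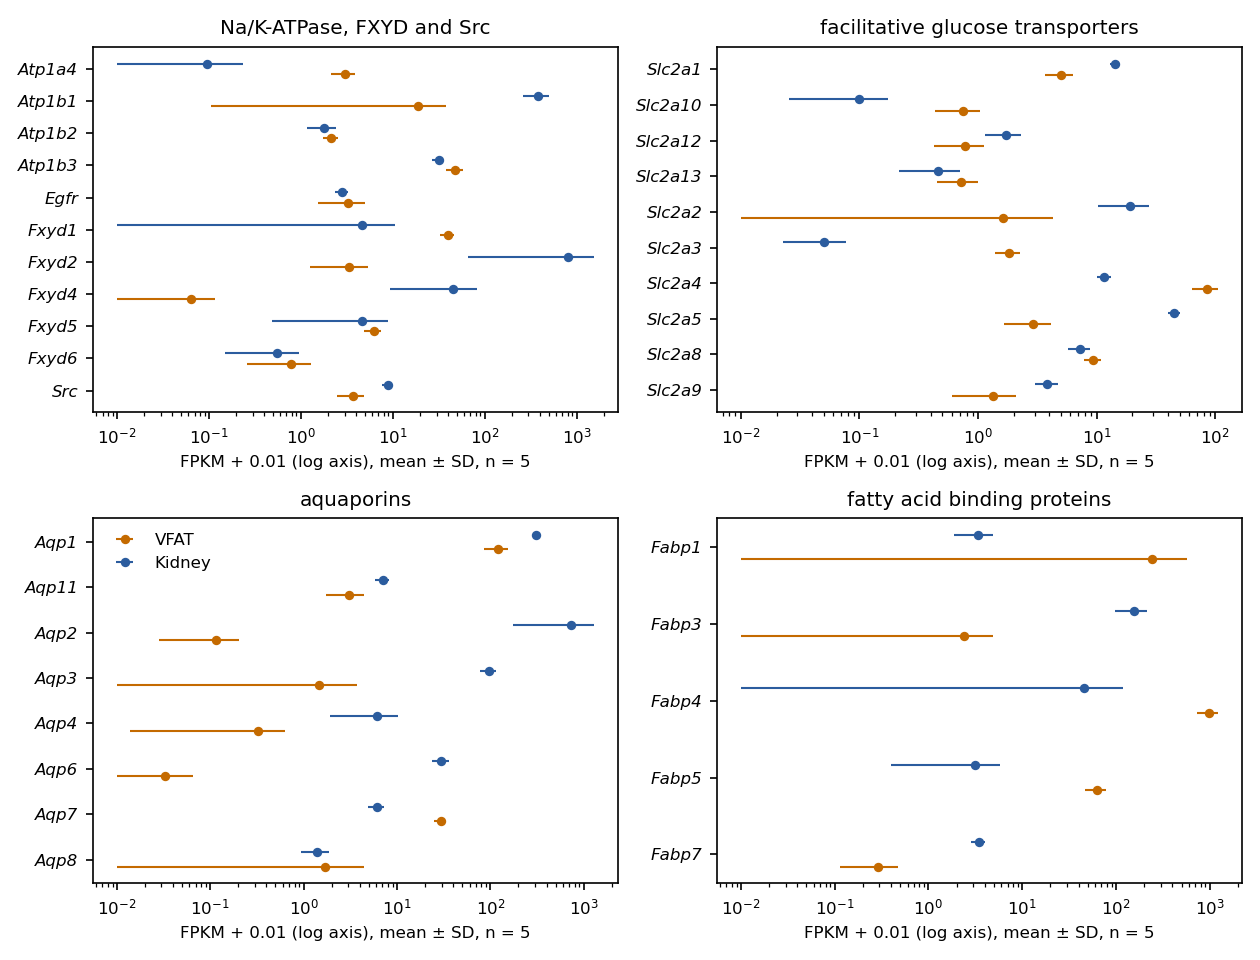
FPKM + 0.01 (log axis; points are means, bars ± SD over 5 libraries, cut at 0.01) of Na/K-ATPase and related genes, glucose transporters, aquaporins and fatty acid binding proteins in VFAT and Kidney. Atp1b1 and Fxyd2 stood higher in Kidney and Fxyd1 in VFAT, Slc2a4 and Slc2a5 lay on opposite sides, and the wide VFAT bar of Fabp1 spans libraries 3 and 5 against the rest.

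The 3 other families also divided by member. Of 10 facilitative glucose transporters, 3 were higher in VFAT (Slc2a4, Slc2a3 and Slc2a10), 5 in Kidney and 2 were not called. Per length, GLUT4 (Slc2a4) measured 84.8 ± 21 FPKM in VFAT and 11.6 ± 1.64 FPKM in Kidney, and the fructose transporter Slc2a5 2.88 ± 1.24 FPKM in VFAT and 45.1 ± 5.54 FPKM in Kidney (log2 fold change −3.89 ± 0.31 (SE), adjusted p = 1.53e-06). Slc2a2 (GLUT2), of liver and proximal tubule, had 0.29, 0.462, 11.3, 0.389 and 38.4 CPM in VFAT 1 to 5 and 172, 159, 126, 52.4 and 59 CPM in Kidney 1 to 5 (log2 fold change −3.45 ± 1.13 (SE), adjusted p = 0.0243). Its fat values came mostly from the libraries with liver genes, and without VFAT 3 and 5 it gave −8.15, adjusted p = 5.08e-06. Leaving out its highest fat libraries fixes that shift, which is no separate support. Slc2a1, Slc2a9, the urate transporter, and Slc2a12 were higher in Kidney (−1.45, −1.44 and −1.13), the last not without Kidney 1 (−0.91, adjusted p = 0.0624). Slc2a8 and Slc2a13 were not called.

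Of 8 aquaporins, 6 were higher in Kidney, 1 in VFAT and 1 was not called. Aqp1, of proximal tubule and capillaries, measured 120.0 ± 33.6 FPKM in VFAT and 309 ± 14.3 FPKM in Kidney (log2 fold change −1.29 ± 0.23 (SE), adjusted p = 0.000629), so its level in fat was lower but not low. Aqp3 and Aqp4, the basolateral channels of principal cells, and Aqp11 were higher in Kidney (−5.85, −4.14 and −1.14). Aqp6, of intercalated cells, stood at 100.4, 74.3, 57.4, 67.7 and 74 CPM against 3 counts over VFAT. Aqp7, the glycerol channel of fat cells, had 85.7, 88.3, 73.2, 106 and 95.4 CPM in VFAT 1 to 5 and 19.5, 20.7, 22, 15.7 and 11.6 CPM in Kidney 1 to 5 (log2 fold change 2.29 ± 0.19 (SE), adjusted p = 2.2e-06). Aqp8 was not called, with its 2 highest fat values in VFAT 3 and 5.

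All 5 fatty acid binding protein genes tested were called. Fabp4, the carrier of fat cells, measured 981 ± 249 FPKM in VFAT and 45.3 ± 74.6 FPKM in Kidney (log2 fold change 4.62 ± 0.91 (SE), adjusted p = 0.00134), and Fabp5 62.6 ± 16.1 FPKM in VFAT and 3.11 ± 2.72 FPKM in Kidney (log2 fold change 4.62 ± 0.44 (SE), adjusted p = 6.72e-06). Fabp4 was at 50.9, 35.6, 52.8, 86.6 and 754 CPM in Kidney 1 to 5, again highest in Kidney 5. Fabp3, of heart and tubule, and Fabp7 were higher in Kidney (−5.86 and −3.49). Fabp1, of liver, was called toward VFAT, but its counts were 1.02, 4.06, 282, 4.66 and 439 CPM in VFAT 1 to 5, and without VFAT 3 and 5 it was not called (0.92, adjusted p = 0.167).

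Of 21 epithelial adhesion and junction genes, 9 were higher in Kidney and 12 were not called. In the reduced set 20 were called toward Kidney, and none toward VFAT in either. That set leaves out VFAT 2, 3 and 5, where this same list was high, so its values here and for Epcam below are no separate support. Cdh16, kidney-specific cadherin, had 0, 38.1, 104, 1.68 and 42.3 CPM in VFAT 1 to 5 and 1134, 1066, 949, 1215 and 1148 CPM in Kidney 1 to 5 (log2 fold change −4.89 ± 1.2 (SE), adjusted p = 0.00542). Epcam, an adhesion molecule of most simple epithelia, had 1.31, 40.5, 92.4, 1.3 and 46.6 CPM in VFAT 1 to 5 and 137, 94, 89.7, 85.9 and 94.8 CPM in Kidney 1 to 5 (log2 fold change −1.46 ± 0.88 (SE), adjusted p = 0.185), and the reduced set gave −6.32, adjusted p = 5.51e-08. VFAT 2, 3 and 5 thus reached 40.5 to 92.4 CPM of Epcam while VFAT 1 and 4 held 1.31 and 1.3. Proximal tubule genes summed to 526, 981 and 777 CPM in VFAT 2, 3 and 5 and 311 and 281 in VFAT 1 and 4. Of these sums Aqp1, which capillaries share, made up 283, 355, 509, 235 and 335 CPM in VFAT 1 to 5, and Slc22a6 and Miox had 1 and 2 counts over all 5. Loop of Henle and distal tubule genes summed to 47.6, 70.9 and 34.4 CPM in VFAT 2, 3 and 5 and 3.63 and 7.0 in VFAT 1 and 4. In the same order, principal cell genes summed to 32.0, 95.0 and 50.9 against 3.19 and 5.05 CPM. Intercalated cell genes summed to 24.5, 44.9 and 34.6 against 6.82 and 11.7, and kidney transcription factors to 72.1, 211 and 158 against 6.53 and 8.29. What part tubule cells had in the epithelial counts of VFAT was not tested.

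Amino acid catabolism and detoxification genes stood mostly with Kidney. Of 18 amino acid catabolism genes, 12 were higher in Kidney and 1, Bckdhb of branched-chain breakdown, in VFAT (log2 fold change 1.41 ± 0.22 (SE), adjusted p = 0.000287). Gatm, which makes the precursor of creatine, had 6.67, 11.7, 8.84, 6.35 and 9.67 CPM in VFAT 1 to 5 and 676, 661, 385, 189 and 251 CPM in Kidney 1 to 5 (log2 fold change −5.64 ± 0.44 (SE), adjusted p = 1.38e-06). Aldh4a1, of proline breakdown, differed by −2.30. Of 20 detoxification and organic ion transport genes, 14 were higher in Kidney and 1 in VFAT. A pair of cytochromes P450 went opposite ways. Cyp4b1 had 36.4, 36.4, 36.3, 54 and 40.6 CPM in VFAT 1 to 5 and 2467, 2603, 2672, 3036 and 1669 CPM in Kidney 1 to 5 (log2 fold change −5.93 ± 0.28 (SE), adjusted p = 5.73e-08) and Cyp2e1 3443, 3125, 3100, 6502 and 2990 CPM in VFAT 1 to 5 and 1495, 1705, 1791, 1963 and 1430 CPM in Kidney 1 to 5 (log2 fold change 1.19 ± 0.27 (SE), adjusted p = 0.00343). Slc22a2 (OCT2), the basolateral cation transporter, differed by −9.46.

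Nuclear genes of oxidative phosphorylation were higher in Kidney in 17 of 20 cases, none past 4-fold (median −1.09). Uqcrc1 and Cox5a differed by −1.54 and −1.2. In the reduced set 10 of 20 were called, beside 4508 of all 16518 genes higher in Kidney, and the median was −0.52. Without VFAT 2, 3 and 5 alone 2 were called, beside 3239 of 16239 genes, though the median was still −0.89. None of the 13 genes of the mitochondrial genome was called (median 0.18).

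Stroma stood with fat. Of 26 extracellular matrix genes, 20 were higher in VFAT and 3 in Kidney (median 2.74). Dcn, decorin, had 678, 524, 444, 380.0 and 389 CPM in VFAT 1 to 5 and 12.8, 8.65, 16.5, 8.24 and 4.62 CPM in Kidney 1 to 5 (log2 fold change 5.51 ± 0.36 (SE), adjusted p = 3.88e-07), and Col5a3, a fibrillar collagen chain, 648, 361, 240.4, 415 and 317 CPM in VFAT 1 to 5 and 2.78, 3.41, 2, 2.25 and 6.94 CPM in Kidney 1 to 5 (log2 fold change 7.03 ± 0.43 (SE), adjusted p = 2.57e-07). Lum, Eln and Sparc differed by 5.68, 3.05 and 3.18. Col4a3 and Col4a4, chains of the glomerular basement membrane, were higher in Kidney (−4.99 and −4.04). Of 12 fibroblast and adipose progenitor genes, 9 were higher in VFAT and 2 in Kidney. Dpt, dermatopontin, and Clec3b differed by 5.82 and 4.87. Gsn, the actin-severing protein gelsolin, reached 8174, 5564, 4864, 6334 and 3971 CPM in VFAT (log2 fold change 5.81 ± 0.37 (SE), adjusted p = 3.57e-07). Ly6a (Sca-1), widely used to sort adipose progenitors, was higher in Kidney, with 48.2, 91.5, 81.2, 54.7 and 52.1 CPM in VFAT 1 to 5 and 322, 461, 457, 732 and 825 CPM in Kidney 1 to 5 (log2 fold change −3.09 ± 0.32 (SE), adjusted p = 1.2e-05).

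Endothelial genes were higher in VFAT in 9 of 12 cases and in Kidney in 2 (median 1.09). Vwf, von Willebrand factor, and Cdh5, VE-cadherin, differed by 3.55 and 2.66, and Pecam1 and Kdr by 1.67 and 1.66. Plvap, the diaphragm protein of fenestrated capillaries, and Emcn went the other way (−0.78 and −0.88), and neither was called in the reduced set (adjusted p = 0.293 and 0.129). Mesothelial genes, of the lining of visceral fat, were higher in VFAT in 5 of 8 cases and in Kidney in 1. Msln, mesothelin, had 12.9, 11.6, 4.48, 3.37 and 11.8 CPM in VFAT 1 to 5 and 0.608, 0.368, 0.0954, 0.749 and 0 CPM in Kidney 1 to 5 (log2 fold change 4.42 ± 0.58 (SE), adjusted p = 7.32e-05), and Lrrn4 9.72, 8.4, 4.12, 4.66 and 5.94 CPM in VFAT and no Kidney count (at least 82.6-fold). Gpm6a was the exception (log2 fold change −2.92 ± 0.41 (SE), adjusted p = 0.000122). Of 7 smooth muscle and pericyte genes, 3 were higher in VFAT, among them Rgs5 (1.87) and Myh11 (1.68).

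Macrophage genes were higher in VFAT in 12 of 17 cases and in Kidney in 1 (median 2.21). Retnla, of alternatively activated macrophages, had 197, 112, 116, 47.3 and 77.9 CPM in VFAT 1 to 5 and 0, 0.184, 0.191, 0.25 and 0 CPM in Kidney 1 to 5 (log2 fold change 9.54 ± 0.62 (SE), adjusted p = 3.73e-07). Mrc1, the mannose receptor, had 55.1, 56.1, 35.8, 34.1 and 37.3 CPM in VFAT 1 to 5 and 4.43, 1.56, 1.72, 0.499 and 1.16 CPM in Kidney 1 to 5 (log2 fold change 4.35 ± 0.43 (SE), adjusted p = 7.89e-06), and Cd163, the haemoglobin scavenger receptor, 25.2, 16.4, 17.6, 21 and 19.5 CPM in VFAT 1 to 5 and 0.26, 0.092, 0.0954, 0 and 1.16 CPM in Kidney 1 to 5 (log2 fold change 6.84 ± 0.44 (SE), adjusted p = 3.57e-07). Clec10a and Itgam differed by 5.62 and 3.94. Mertk, the receptor for dying cells, was higher in Kidney (log2 fold change −0.74 ± 0.24 (SE), adjusted p = 0.0226), a call lost without Kidney 2 or 3 or VFAT 3 or 5 (−0.70 to −0.59). Summed macrophage genes were even over fat, at 974 to 1018 CPM, and ran from 174 to 551 in Kidney, highest in Kidney 5.

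The other immune lists were mixed. Of 13 chemokine and cytokine genes that passed the filter on low counts, 10 were higher in VFAT and 1 in Kidney. With no filter, 11 of 24 were higher in VFAT, 2 in Kidney and 11 were not called. Ccl11 (eotaxin), Cxcl9, Ccl6 and Csf1, the macrophage growth factor, differed by 7.73, 6.08, 4.45 and 2.19, and Cx3cl1, fractalkine, by −1.97. Of 15 complement genes, 11 were higher in VFAT and 1 in Kidney. C7, a membrane attack component, and C1s1 differed by 5.29 and 3.86, and Cfb, factor B, was higher in Kidney (log2 fold change −1.98 ± 0.31 (SE), adjusted p = 0.000277). Antigen presentation genes were called toward VFAT in 3 of 9 tested cases, and with no filter in 2 of 12. H2-Aa, an MHC class II chain, had 73.8, 88.3, 135, 131 and 80.3 CPM in VFAT 1 to 5 and 29.3, 23.5, 21.9, 78.1 and 76.3 CPM in Kidney 1 to 5 (log2 fold change 1.18 ± 0.40 (SE), adjusted p = 0.0282) and lost its call when Kidney 1, 2 or 3 or VFAT 3 or 4 was left out (log2 fold change 0.99 to 1.09). Interferon-stimulated genes were called toward VFAT in 4 of 13 cases, with Gbp2 the largest (log2 fold change 3.18 ± 0.40 (SE), adjusted p = 5.46e-05).

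Natural killer genes were called toward VFAT in 3 of 4 tested cases, and with no filter in 5 of 8. Ncr1, the NKp46 receptor, had 1.31, 5.08, 2.06, 4.66 and 2.97 CPM in VFAT 1 to 5 and 0.26, 0.276, 0.381, 0.499 and 0 CPM in Kidney 1 to 5 (log2 fold change 3.28 ± 0.48 (SE), adjusted p = 0.000158). Mcpt4, a mast cell protease, stood at 4.06, 2.31, 3.15, 1.3 and 1.57 CPM in VFAT with no Kidney count (at least 31.2-fold). Of 9 neutrophil genes 2 were tested (S100a8 and S100a9), and neither was called. Summed neutrophil genes stood at 155 CPM in Kidney 5 against 1.22 to 29.7 in Kidney 1 to 4, and at 94.2 CPM in VFAT 4 against 4.5 to 8.4 in the other VFAT libraries. Without Kidney 4 and 5, 2 of 3 tested were higher in VFAT, and in the reduced set 3 of 3 (median 4.59), where VFAT 4 is 1 of the 2 fat libraries. Only 1 of 10 lymphocyte genes passed the filter on low counts: Ighm, the μ heavy chain, with 295, 76.3, 47.7, 59.2 and 63.9 CPM in VFAT 1 to 5 and 4.69, 3.31, 2.96, 5.24 and 1.16 CPM in Kidney 1 to 5 (log2 fold change 4.85 ± 0.60 (SE), adjusted p = 4.2e-05). VFAT 1 was its highest library. Cd79b, its signalling partner in B cells, had 0.29, 0.369, 0.969, 0.259 and 0.45 CPM in VFAT 1 to 5 and 1.04, 0.276, 0.286, 2 and 10.4 CPM in Kidney 1 to 5 and did not pass the filter, so its highest value was in Kidney 5, the opposite side to Ighm.

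Genes of organs that neither label names were also measured. The liver list was called toward VFAT in 6 of 9 cases. Alb, albumin, had 46.7, 67.5, 2451, 58.6 and 3993 CPM in VFAT 1 to 5 and 7.72, 11.3, 18.7, 18.7 and 11.6 CPM in Kidney 1 to 5 (log2 fold change 6.60 ± 1.41 (SE), adjusted p = 0.00226), and Ahsg 0.725, 4.8, 418, 6.35 and 953 CPM in VFAT 1 to 5 and 0, 0, 0.763, 1.5 and 1.16 CPM in Kidney 1 to 5 (log2 fold change 9.19 ± 2.21 (SE), adjusted p = 0.00473). Without VFAT 3 and 5 the list split 3 to 3, and Alb gave 2.08, adjusted p = 0.000217. Serpina1a, α1-antitrypsin, and Ttr, transthyretin, were not called and were higher in Kidney once VFAT 3 and 5 were left out (−4.20, adjusted p = 8.66e-06 and −5.84, adjusted p = 5.13e-05). Myh6, the α heavy chain of heart muscle, had 0.29, 0.0924, 0, 0.13 and 0.225 CPM in VFAT 1 to 5 and 4.17, 10, 4.96, 59.7 and 129 CPM in Kidney 1 to 5 (log2 fold change −7.81 ± 1.28 (SE), adjusted p = 0.000359), and Pvalb, parvalbumin, which distal tubule cells share with muscle, 0.29, 0.277, 0.121, 0 and 0.45 CPM in VFAT 1 to 5 and 53.9, 52, 80.1, 193 and 260.1 CPM in Kidney 1 to 5 (log2 fold change −8.82 ± 0.73 (SE), adjusted p = 2.17e-06). Gpx5, of the epididymis, was at 1.3 to 4.34 CPM in VFAT (log2 fold change 4.39 ± 0.64 (SE), adjusted p = 0.000157).

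Hox genes, which record position along the body, split 8 to VFAT and 9 to Kidney of 25. Hoxc8 had 112, 70.5, 59.3, 95.7 and 64.6 CPM in VFAT 1 to 5 and 1.48, 1.93, 0.572, 0.999 and 0 CPM in Kidney 1 to 5 (log2 fold change 6.03 ± 0.39 (SE), adjusted p = 4e-07), and Hoxc5 differed by 4.91. Hoxa10 had 0, 0.0924, 1.69, 0 and 4.18 CPM in VFAT 1 to 5 and 33, 36.8, 45.9, 53.9 and 67.1 CPM in Kidney 1 to 5 (log2 fold change −5.04 ± 0.86 (SE), adjusted p = 0.000491), and Hoxd10 and Hoxd9 differed by −5.22 and −2.98. By cluster, 4 of 8 A genes, 0 of 8 B, 4 of 6 C and 0 of 3 D genes were called toward VFAT, and 3, 2, 1 and 3 toward Kidney; the clusters were not tested against each other. Of 19 clock genes, 7 were higher in VFAT and 2 in Kidney. Bhlhe41 (DEC2), Per3, Cry2 and Nr1d1 were higher in VFAT (3.0, 1.62, 1.36 and 0.99) and Hlf in Kidney (−1.59). Time of tissue collection is not given in the sources used here.

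The tissue difference was also measured in the other 4 arms, whose libraries are separate from those above. VFAT and Kidney differed in 8065 of 15535 genes in Sham (51.9%), 7634 of 15553 in PNx with no cells (49.1%), 7924 of 16398 with NaKtide cells (48.3%) and 8209 of 16331 with scrambled cells (50.3%; 4 VFAT libraries). Calls shared in direction with the control-cell arm numbered 5531, 6626, 6078 and 6178. They made up 72%, 84%, 76% and 77.4% of the control-cell calls tested in both and 70.9%, 88.4%, 81.3% and 79.6% of the other arm's. Calls of opposite direction numbered 54, 0, 5 and 33. The log2 fold change of Pparg was 7.12 with control cells and 5.65, 7.12, 6.01 and 6.51 in the other arms in that order. Atp1b1 had −4.24 and −5.35, −4.12, −3.80 and −6.32, Agt 6.54 and 6.08, 5.58, 6.76 and 4.68, and Ly6a −3.09 and −3.20, −2.86, −2.27 and −2.42. These 4 genes were chosen as examples, and all 4 kept their direction in every arm. Other named genes did not. Of 236 named genes tested in Sham too, 19 had the opposite sign there, among them Cyp2e1 (1.19 with control cells and −0.66 in Sham, not called there).

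**Figure D5:**
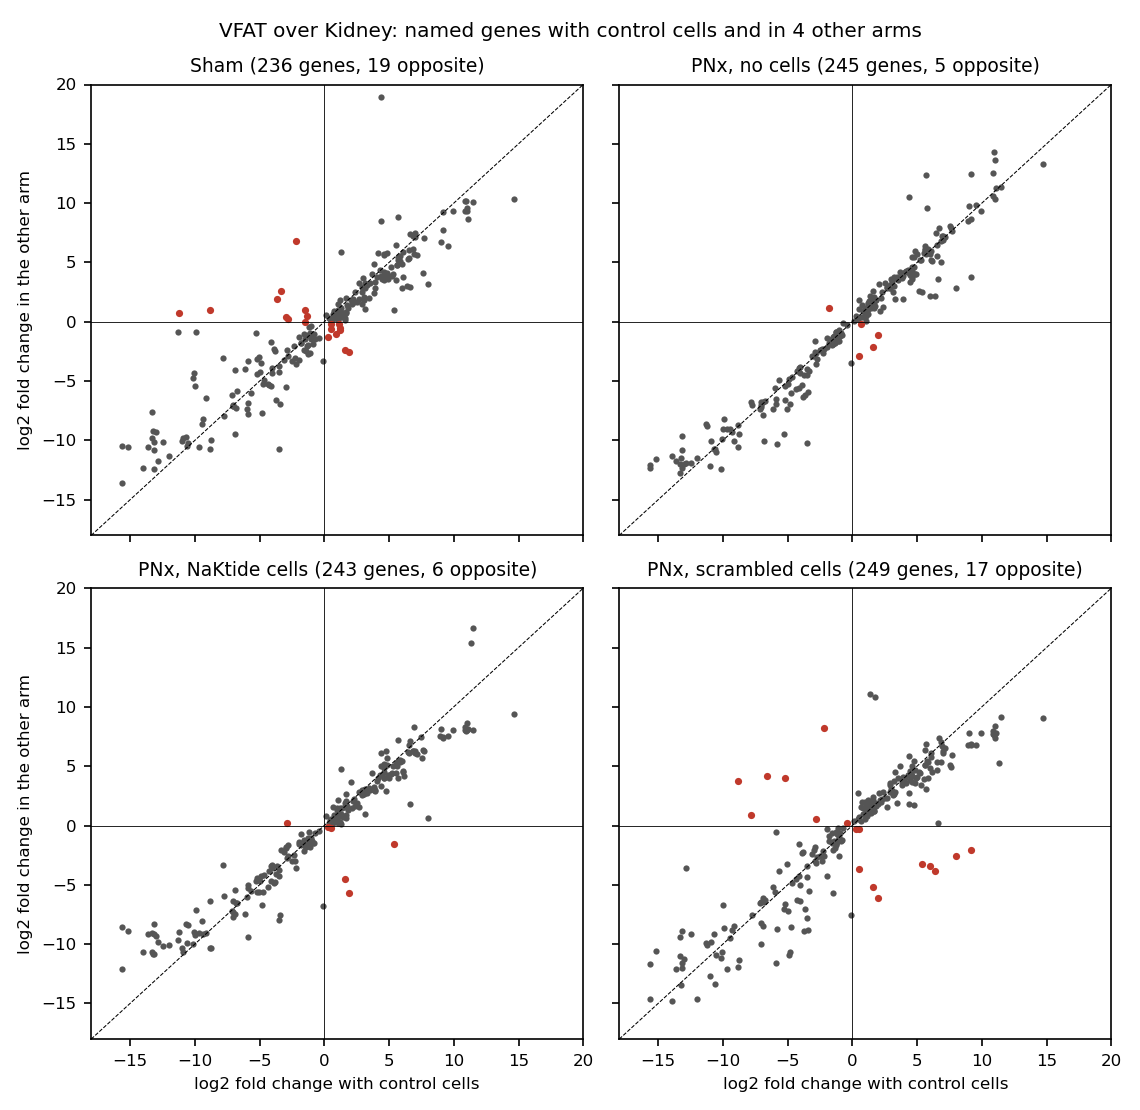
Log2 fold change (VFAT over Kidney) of the named genes with control cells (x axis) against that in each other arm (y axis), with the line of equality dashed and genes of opposite sign in red. Opposite signs were seen in 19 of 236 genes for Sham, 5 of 245 for PNx, 6 of 243 for NaKtide cells and 17 of 249 for scrambled cells.

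Of the named genes, 1 was called in opposite directions with control cells and in Sham (Grhl2, −3.34 and 2.61) and 7 with control cells and scrambled cells (Apoa1, Apoa2, Fgg and Fabp1 of liver, Cela1, Myh7 and Pvalb). None was for PNx or NaKtide cells. Whether the tissue difference itself differed between control cells and PNx with no cells was tested as an interaction. No gene of 16807 (0%) was called by edgeR, with 364 at an unadjusted p under 0.05, and none by DESeq2 (354) or limma-voom with quality weights (4367). With no difference, a share of 0.05 of the genes would lie under that p. The edgeR and DESeq2 counts lay below this share and the limma-voom count above it, so the methods differed here. Why they differed was not tested. The lowest p belonged to Lrig3, Bmper, Cish, Slc25a48, Ren1 and Rbm38, all at an adjusted p of 0.99994. Ren1 differed by −3.49 with control cells and −10.2 with no cells, a difference of 6.66 ± 1.64 (SE), with the VFAT counts of the control-cell arm mostly in libraries 3 and 5. A fit over all 15 groups of the series called Ren1 alone (6.69, adjusted p = 0.0128).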

How the data were processed

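Gene counts were deposited by the authors for each library; reads were paired, 50 bases long, and build GRCm38 is named in the submitters' processing notes beside HISAT2 2.1.0, Trimmomatic 0.38 and DESeq2 (1.20.0 and 1.20.1). No source used here names the counting tool or its use of strand, so genes with overlapping exons (Nrg4, Slc7a10, Fabp3, Tkfc, Irf7, Nr1d1, Slc2a12, Hoxc5, Cyp24a1, Clec9a, Nphs1, Grhl2) or near-identical copies (Serpina1a, Serpina1b, C1s1) are uncertain. The authors' deposited FPKM values were used for levels per length. From the counts, edgeR 4.0.16 in R 4.3.3 (TMM, filterByExpr, quasi-likelihood test, Benjamini-Hochberg over all genes tested, threshold 0.05) compared the 5 VFAT with the 5 Kidney libraries; glmTreat tested against 2-fold. CPM values use TMM-scaled totals, and a floor of 3 counts over a group sets every bound. Intervals and floors cover counting error only. Second libraries of number 3 in 2 groups were added to the first. The members and lists were chosen with earlier results of these data known. Named genes were the 10 largest per direction past 4-fold, at 100 CPM or more and with groups apart, up to 5 and 2 called members per list, every tested member of 4 families, the 6 lowest p of the interaction and any gene of an absent tissue over 10 CPM; some of them are not reported here. Alternatives used DESeq2 1.42.0 and limma 3.58.1 among others, and the scripts were tested on simulated data.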

Additional observations from a re-analysis of the deposited data

Results flagged for a closer look

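Of 428 groups of 5 libraries checked over 245 genes, 36 held a library whose gap to the nearest of the others, on the log2(CPM + 1) scale, took up more than 0.71 of the group's range; chance gives about 5%. Kidney 5 accounted for 24. Its values in CPM were the highest of the Kidney group for Acaca 77.5, Actn3 3.47, Adipoq 30.1, Adrb3 4.62, Apol6 1.16, Ccl9 5.78, Cfd 962, Dio2 3.47, Ebf2 1.16, Fabp4 754, Fasn 671, Hk2 5.78, Hpx 2.31, Mgll 119, Nnat 2.31, Plin1 13.9, Plin4 13.9, Retn 106, Slc7a10 3.47, Tpsb2 1.16, Twist2 1.16 and Ucp1 208.
Most of these are genes of fat cells, brown fat or lipid synthesis, and a single count in Kidney 5 was worth 1.16 CPM. Kidney 5 was lowest for Acsm2 2950 and Atp1b3 52 CPM.

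Kidney 1 was highest for Epcam 137 and Lrig3 8.16 CPM and lowest for Slc2a5 131 and Slc5a10 326 CPM, and Kidney 4 was highest for Slc25a48 84.6 CPM. In VFAT, library 5 was highest for C1ra 132, Ccl9 36.4 and Cldn8 2.16 CPM, library 4 highest for Cyp2e1 6500 and Cyp4b1 54 and lowest for Nnat 93.5 CPM, and library 1 highest for Ighm 295 CPM.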

How the results depend on the processing

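The count of genes called stayed within 1.5 times 8091 under each alternative run: 8697 with DESeq2, 9355 with limma-voom and quality weights, 8170 with DESeq2 size factors, 7499 with plain totals, 9579 with no filter, 9144 without Kidney 4 and 5 and 10822 with all 15 groups in a single fit. Leaving out 1 library gave 7251 to 8468 called, 3783 to 4355 higher in VFAT, 3468 to 4167 higher in Kidney, and 2794 to 3151 past 4-fold (1536 to 1770 in VFAT, 1247 to 1481 in Kidney). A set of 3 settings was chosen after seeing the data: 7260 genes were called without VFAT 3 and 5, 6375 without VFAT 2, 3 and 5, and 8798 without these and Kidney 4 and 5. Genes past 4-fold in VFAT numbered 2416 with no filter, where more genes were tested. Genes past 4-fold in Kidney numbered 2010 without VFAT 2, 3 and 5 and 2135 without Kidney 4 and 5 as well; the cause was not tested. The interaction called 0 genes except in the fit over all 15 groups, which called 1, Ren1 (6.69).

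Library numbers are shared between tissues, but the labels do not say that a number stands for the same mouse, so they were not taken as pairs. Deviations of same-numbered libraries correlated by 0.14, 0.03, −0.04, 0.03 and 0.02, which cannot show whether they came from the same mouse. With the replicate block 7322 genes were called, 2867 past 4-fold and 0 in the interaction. The block also gave reversed signs for Aqp8 (−1.33), Serpina1a (−2.01), Serpina1b (−2.09) and Ucp1 (1.68), none of them called there.

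Among the values of named genes under alternatives, 5103 kept direction and call, 129 lost the call, 35 gained it and 37 reversed. No gene past the threshold in the fit reported reversed, except Fgg. Leaving out 1 library reversed some that were not called, with ranges of −3.47 to 5.31 for Ucp1 (highest without Kidney 5), −1.35 to 0.30 for Ttr, −0.14 to 0.27 for Nphs1, −1.22 to 0.82 for Aqp8 and −0.10 to 0.42 for Egfr (both lowest without VFAT 5). Ucp1 also reversed with limma-voom (6.21), without Kidney 4 and 5 (6.72) and in the reduced set (4.61). Serpina1b reversed with limma-voom (−0.0165), Ttr with plain totals (0.24) and without Kidney 4 and 5 (0.39), and Nphs1 without VFAT 2, 3 and 5 (−0.29). Without VFAT 3 and 5, without VFAT 2, 3 and 5, and in the reduced set, in that order, Aqp8 was at −5.35, −7.03 and −7.25, Egfr at −0.32, −0.36 and −0.52, Fgg at −0.98, −1.18 and −1.2, Serpina1a at −4.20, −4.39 and −4.34, and Serpina1b at −4.18, −4.27 and −4.39. Fxyd6 was at −0.35 without VFAT 2, 3 and 5. The cause of these reversals was not tested. Of the VFAT libraries left out, the liver list stood high in VFAT 3 and 5 (5595 and 10997 CPM) and not in VFAT 2 (112 CPM). DESeq2 gave no adjusted p for Fabp4. Depth limits Kidney 5 most, where a single count equals 1.16 CPM.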
